A study of Danio rerio with 6 samples.

Results

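In 340 open chromatin regions of the zebrafish embryo, the peak summits of 3 endothelial libraries all lay on one side of the summits of 3 non-endothelial libraries, with at least 50 bp between them. A region here is a stretch of sequence formed by merging overlapping peaks of the 6 deposited lists, and the summit is the base at which a peak is highest. Of 187225 merged regions, 20275 held a peak in every list and are called shared regions, and 340 of these (1.68%) met the rule. They were chosen by the measured summit positions, each list being represented by its peak of highest fold enrichment in the region. The distance between the nearest summits of the 2 fractions is called the gap. Since the rule used it, the gap of a region is given as a description with no test. Tests compare only counts, left-out readings and summit distances over all shared regions between divisions of the lists. The same rule applied to the other 9 ways of dividing the 6 lists into 3 and 3 gave 196 to 309 regions. Divisions that ignore the fraction thus also gave such regions, with a median of 225, so the 340 are called regions with separated summits here rather than fraction-specific ones.

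ATAC-seq maps accessible DNA by letting a transposase insert sequencing adapters into it. Enhancers and promoters appear as peaks because bound transcription factors and remodelled nucleosomes leave their DNA exposed, and the summit marks the base with the most signal. One open stretch can hold several neighbouring elements, bound by different factors in different cell types. In the endothelium of the early embryo, ETS family transcription factors, to which Fli1 belongs, are known to act through many enhancers.

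The embryos carried Tg(fli1a:egfp), in which regulatory sequence of fli1a drives GFP, and were taken at 24 hours post fertilization. Nuclei from deyolked whole embryos were sorted by fluorescence, and 20000 nuclei went into each library. The GFPplus fraction (3 libraries) is endothelial and the GFPminus fraction (3 libraries) is non-endothelial according to the labels, and nuclei of both fractions come from embryos with the transgene. As background, this transgene is also known to be active in some neural crest derivatives of the pharyngeal arches, and the GFPminus fraction mixes all remaining tissues. The series title gives the search for endothelial enhancers as its purpose, and the design text describes biological triplicates from 3 occasions. Genes near the regions, endothelial marker genes and sequences were not analysed here, because the gene table at hand is of another build than the peak lists (Zv9), so regions are named by position.

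The lists differed in length. GFPplus replicates 1 to 3 held 72695, 73716 and 50396 peaks, and GFPminus replicates 1 to 3 held 113476, 110663 and 33437. GFPminus replicate 3 stood apart, with the shortest list and a shortest peak of 160 bp, against 108 to 116 bp in the other lists. Its summits also lay farthest from those of all other lists. Over the shared regions its median distance to the summit of another list was 53 to 55 bp, while pairs of the other 5 lists were 26 to 37 bp apart. The read depth behind a summit is not known from peak lists.

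Over all shared regions, summits were about as far apart between fractions as within them. The median distance averaged 40.0 bp over the 9 pairs of lists from different fractions (SD 10.7) and 39.8 bp over the 6 pairs from the same fraction (SD 11.6). The difference of 0.17 bp was within the spread of the pairs (exact two-sided permutation p = 1 over the 10 divisions of the 6 lists, smallest possible 0.1). In the 340 regions with separated summits, lists of the same fraction were about as close as elsewhere. The GFPplus lists were 29 to 29.5 bp apart at the median, and GFPminus replicates 1 and 2 were 27 bp apart. GFPminus replicate 3 lay 50 and 57 bp from these. Pairs from different fractions were 141.5 to 193 bp apart, a size that follows from the rule. Distances within a fraction are not free of the rule either, since the summits of a fraction may not reach past those of the other.

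**Figure D1:**
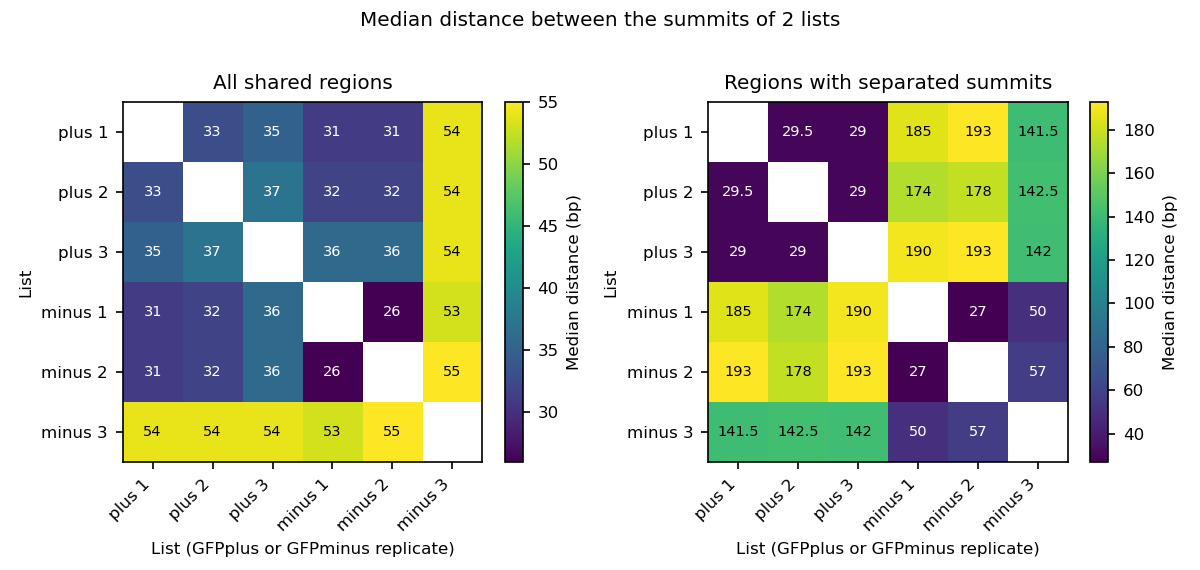
Median distance in bp between the summits of 2 lists, as a colour and a number for each pair of lists (plus and minus stand for GFPplus and GFPminus replicates), over all shared regions on the left and over the regions with separated summits on the right, each with its own colour scale. On the left only the row of GFPminus replicate 3 stands out, at 53 to 55 bp, and on the right the fractions form blocks, as the rule requires.

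In 165 of the 340 regions (48.5%) the GFPplus summits lay at the higher coordinates, and in 175 at the lower ones. The gap had a median of 82.5 bp, with quartiles at 62 and 133 bp and a largest value of 1301 bp. It was under 100 bp in 220 regions, 100 to under 200 bp in 63 and at least 200 bp in 57. The larger of the within-fraction ranges of summits had a median of 110.5 bp, and it was smaller than the gap in 137 regions (40.3%). The range had a median of 98 bp at gaps under 100 bp, 161 bp at 100 to under 200 bp and 135 bp at gaps of at least 200 bp. It thus did not rise or fall steadily with the gap.

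**Figure D2:**
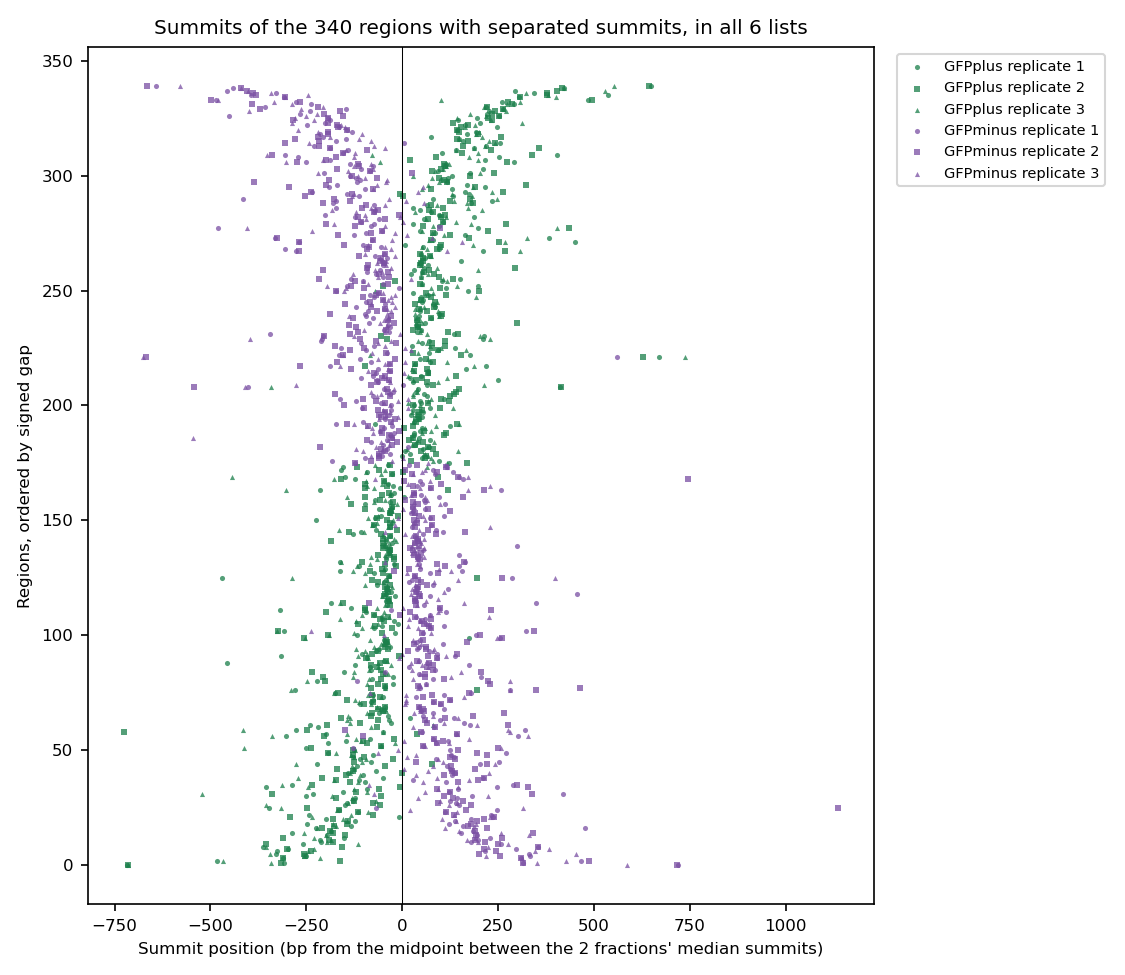
Summit positions of the 6 lists in each of the 340 regions, in bp from the midpoint between the median summits of the fractions, with regions ordered by signed gap (1 row of points per region). The fractions are far apart at the top and bottom, and in the middle, where gaps are close to 50 bp, their summits lie near each other and those of 1 fraction are often widely scattered.

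The number of regions was compared with the other divisions of the 6 lists, since each division can place its lists on opposite sides. The sorted fractions gave 340 regions, 1.10 times the highest other division (309 regions, 1.52% of the shared regions), 1.51 times the median of 225 and above the lowest (196 regions, 0.967%). No other division reached the count (exact one-sided permutation p = 0.1, the smallest possible with 10 divisions). The next highest division set GFPplus replicates 1 and 3 and GFPminus replicate 3, the 3 shorter lists, against the 3 longest. That division thus came close to the one along fractions. GFPplus replicates 1 and 2 had lists of nearly equal length, and the same division with these 2 exchanged gave 287 regions. All 10 divisions together held 2445 regions, 12.1% of the shared regions, so that the regions with separated fractions were 13.9% of them. By the rule a region cannot belong to more than 1 division. With peaks of a −log10 q of at least 5 alone, the fractions gave 158 of 12388 shared regions. Another division gave more (ratio 0.958, exact one-sided permutation p = 0.2). With each list shortened to the length of the shortest, the fractions gave 185 of 13969 shared regions and the ratio was 1.005.

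The ratio to the other divisions was highest at wide gaps. Under 100 bp there were 220 regions against 134 to 209 in the other divisions, and from 100 to under 200 bp there were 63 against 35 to 69. At gaps of at least 200 bp the count was 57 against 14 to 45, at 300 bp or more 36 against 7 to 20, and at 500 bp or more 13 against 1 to 6. Each of these 3 counts was the highest of the 10 divisions (exact one-sided permutation p = 0.1 for each), and the ratio to the highest other division was 1.27, 1.80 and 2.17. With a gap of at least 25 bp the count was 675 and another division had more, 749 (exact one-sided permutation p = 0.2). The gaps other than 50 bp are nested counts of the same regions, and those of 200 bp and wider were added after the values had been seen.

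**Figure D3:**
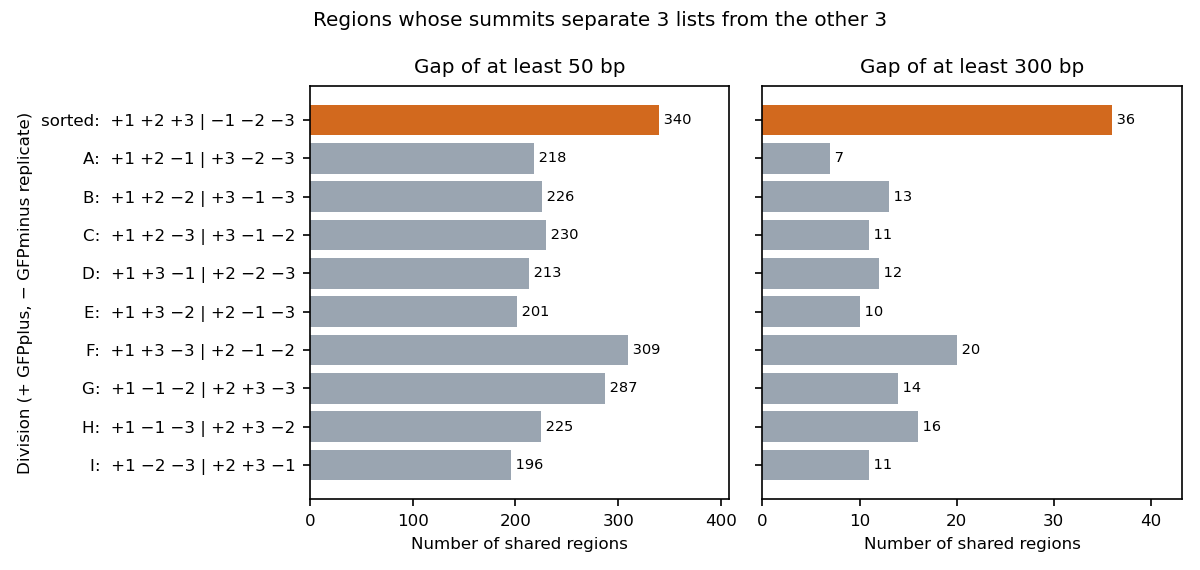
Number of shared regions whose summits are separated by at least 50 bp (left) or 300 bp (right), for the sorted fractions and the other 9 divisions (A to I) of the 6 lists into 3 and 3, where + and − stand for GFPplus and GFPminus replicates. Division F, the longest lists against the shorter ones, reaches 309 regions beside 340 for the fractions, and at 300 bp it reaches 20 beside 36.

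Leaving out a library changed which division was highest. With 5 lists, the count for the fractions lay between 752 of 20804 shared regions (without GFPplus replicate 1) and 1134 of 27647 (without GFPminus replicate 3). Fewer summits have to be separated then, and more regions are shared than with all 6 lists. In each of the 6 cases another grouping of the 5 lists into 3 and 2 gave more regions, and the ratio to it was 0.723 to 0.979. When any of GFPplus replicates 1 and 2 or GFPminus replicates 1 and 2 was left out, that grouping set apart GFPplus replicate 3 and GFPminus replicate 3, the shortest lists. Without GFPplus replicate 3 it was GFPplus replicate 1 with GFPminus replicate 3 (963 regions against 864), and without GFPminus replicate 3 it was GFPplus replicates 1 and 3 (1158 against 1134). At gaps of at least 300 bp the fractions gave the highest count in 4 of these 6 cases, with ratios of 1.01 to 1.80. Without GFPminus replicate 1 the ratio was 0.954 and without GFPminus replicate 2 it was 0.982. At gaps of at least 200 bp the fractions gave the highest count only when a GFPplus list was left out. Without GFPplus replicates 1 to 3 in turn they gave 103, 150 and 120 regions, against at most 100, 111 and 101. Without GFPminus replicates 1 to 3 in turn they gave 103, 105 and 182, and another grouping gave 111, 107 and 192. The part of list length in the counts was not tested beyond the lists of equal length, where the ratio with all 6 lists was 1.005.

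A reading that the choice of regions does not fully fix came from lists left out of the rule. The shared regions were used, so the left-out lists had helped to draw them and held a peak in each. Among these, regions were chosen by the summits of 2 GFPplus and 2 GFPminus lists. The side of the summits was then read in the remaining GFPplus and GFPminus list, for each of the 9 pairs that can be left out. On average 1490 regions were chosen this way at a gap of at least 50 bp. The left-out summits lay on the same side in 53.2% ± 1.59 of them (SD over 9 pairs, which share lists), with 50.3% for the lowest pair and 55.5% for the highest. The other divisions gave 46.5% to 52.5% (exact one-sided permutation p = 0.1, the smallest possible). The side chosen on 4 lists was therefore found again in the left-out lists only slightly more often than the opposite side. All 340 regions with separated summits are chosen for every pair and keep the side by definition. The reading thus says nothing new about them. The other divisions are not a separate background for this reading. Each left-out reading of the fractions recurs in another division with the left-out lists exchanged and the side reversed. A higher share for the fractions thus goes with lower shares in other divisions. Left-out summits lay at least 50 bp apart on the same side in 33.7% of the chosen regions and at least 50 bp apart on the opposite side in 25.7%. The same-side share includes all 340 regions by definition.

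Agreement was higher at wide gaps. At gaps of at least 100 bp, 558 regions were chosen on average, and the left-out lists kept the side in 55.5% ± 2.46 (SD over 9 pairs), against 43.5% to 55.1% in the other divisions. At gaps of at least 200 bp the values were 230 regions and 59.2% ± 2.98, with pairs from 55.5% to 64.4%, against 40.3% to 55.5% (exact one-sided permutation p = 0.1 for both gaps). Among the latter, the left-out summits lay at least 200 bp apart on the same side in 29.6% and on the opposite side in 13.9%. The same-side share includes all 57 regions with gaps of at least 200 bp by definition. The highest of the other divisions was again the one along list length, at 52.5%, 55.1% and 55.5% for the 3 gaps. At a gap of 25 bp that division lay above the fractions, 52.7% against 51.9% (exact one-sided permutation p = 0.2).

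**Figure D4:**
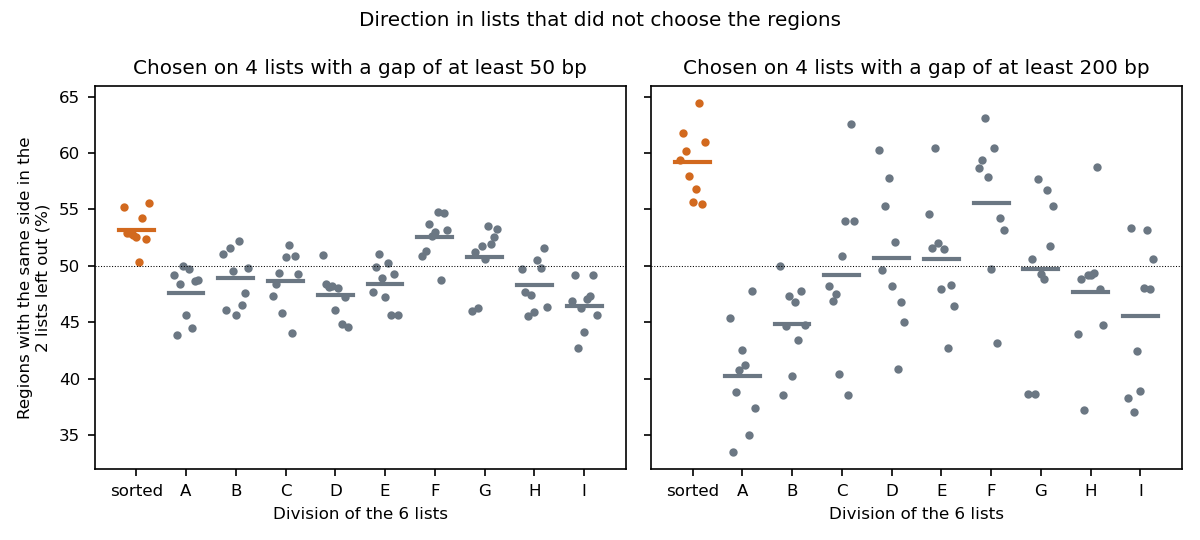
Percentage of regions whose left-out summits lie on the side found in the other 4 lists, for the sorted fractions and the other divisions, lettered as in the plot of counts by division, at gaps of at least 50 bp (left) and 200 bp (right); points are the 9 left-out pairs, bars their mean and the dotted line 50%. The mean for the fractions rises from 53.2% at 50 bp to 59.2% at 200 bp, and division F (GFPplus replicates 1 and 3 with GFPminus replicate 3 against the rest) stays the nearest to it.

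Regions with separated summits were wider and weaker than shared regions as a whole. Their width had a median of 720 bp against 589 bp, from 258 to 2077 bp. The lowest −log10 p among the 6 summit peaks, the authors' own value, had a median of 7.30 against 8.79. The share of regions meeting the rule was 2.53% in the weakest quartile of the shared regions by that value (128 regions) and fell through 1.78% and 1.44% to 0.967% in the strongest (49 regions). By width it rose from 0.732% in the narrowest quartile (37 regions) to 2.78% in the widest (141 regions). Other divisions held 72 to 108 regions in the weakest quartile and 14 to 59 in the strongest, and 17 to 36 in the narrowest and 63 to 127 in the widest, so the outer quartiles also differed this way when the fraction was ignored. Median fold enrichment at the summits was 5.66 to 6.47 in the 6 lists, below the 6.27 to 7.79 of all shared regions in the same lists.

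The height of the peaks did not separate the fractions in most of the regions. The mean log2 fold of the GFPplus lists minus that of the GFPminus lists had a median of 0.01 (quartiles −0.21 and 0.22), beside −0.01 over all shared regions. Fold enrichment was higher in every GFPplus list than in every GFPminus list in 39 of the 340 regions (11.5%), where this held in 7.52% of all shared regions, and lower in 44 (12.9%), where it held in 10.6%. The libraries were normalized separately, and fold also enters the choice of the summit peak, so nothing further is read from these counts.

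The number and overlap of peaks differed among the regions. In 160 regions (47.1%) at least 1 list had several peaks, against 26.9% of the shared regions and 33.2% to 44.0% in the other divisions. All 6 summit peaks overlapped one another in 233 regions (68.5%), against 92.0% of the shared regions and 73.6% to 79.8% in the other divisions. The wide and narrow gaps differed in both measures. With gaps of at least 200 bp, 46 of 57 regions (80.7%) had several peaks in a list and all summit peaks overlapped in 17 (29.8%). With gaps under 100 bp, 76 of 220 (34.5%) had several peaks and all summit peaks overlapped in 173 (78.6%). Median width was 643.5 bp in the narrow and 923 bp in the wide class. These classes are cut by the gap that the rule used. Summit peaks have to reach farther to overlap at a wide gap, and the merged region has to span it. The differences between the classes are thus partly tied to the gap, and the same classes were not compared in the other divisions.

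The summit of the opposite fraction was often covered by a peak as well. Peaks of every list covered the median summit of the opposite fraction in 158 regions (46.5%). All 3 GFPplus lists had a peak over the GFPminus summit in 202 regions and none had one in 14. All 3 GFPminus lists had a peak over the GFPplus summit in 218 regions and none had one in 16. In the regions with gaps of at least 200 bp, every list covered the opposite summit in 12 of 57 (21.1%), against 124 of 220 (56.4%) at gaps under 100 bp. A peak has to reach farther at a wide gap, and the part of this was not tested. No such counts were made for the other shared regions or the other divisions.

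In 59 regions (17.4%) at least 1 list had separate peaks whose summits lay within 50 bp of both the median GFPplus and the median GFPminus summit. This was seen in 1 list for 39 regions, in 2 lists for 11, in 3 for 6, in 4 for 2 and in 5 for 1, and no region showed it in all 6 lists. Where a list had both peaks, the rule fixes that the higher peak lies at the summit of the list's own fraction. How often other shared regions or other divisions show both peaks was not counted. The regions below, chosen after their values had been seen because several lists held both peaks, give examples. On chromosome 21 at 30803220 to 30804042 (gap 273 bp), fold enrichment at the GFPplus and at the GFPminus summit was 11.7 and 5.71 in GFPplus replicate 1. It was 9.02 and 7.19 in GFPplus replicate 2, and 11.3 and 6.03 in GFPplus replicate 3. GFPminus replicate 1 had 7.70 and 7.75 at these summits, and GFPminus replicate 2 had 5.30 and 7.06. The margin between the sites thus varied within each fraction, from wide in GFPplus replicates 1 and 3 to smaller in GFPplus replicate 2, and both sites were nearly equal in GFPminus replicate 1. GFPminus replicate 3 held a single peak in the region.

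On chromosome 14 at 31956426 to 31957774 (gap 581 bp), GFPplus replicate 1 had a fold of 5.18 at the GFPplus summit and 3.88 at the GFPminus summit, and GFPplus replicate 2 had 5.65 and 4.77. GFPminus replicates 2 and 3 had 4.67 and 4.84 at the GFPplus summit and 7.02 and 6.41 at the GFPminus summit. In the region on chromosome 9 at 28682743 to 28683586 (gap 93 bp) the corresponding folds were 7.39 and 6.56 in GFPplus replicate 2 and 6.39 and 4.26 in GFPplus replicate 3. There, GFPminus replicates 1 and 2 had 5.42 and 4.89 at the GFPplus summit and 6.58 and 5.94 at the GFPminus summit. In both regions every site was a called peak in each of the 4 lists given, and the rule fixes the order of heights in them. The remaining lists did not have separate peaks at both sites.

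The widest gap was on chromosome 21 at 44198203 to 44200014. Its GFPplus summits lay 77, 79 and 81 bp from the first base of the region in replicates 1 to 3, and its GFPminus summits 1514, 1511 and 1382 bp, which left a gap of 1301 bp. Summits of a fraction agreed within 132 bp. All 3 GFPplus lists had a peak over the GFPminus summit, and 2 of the 3 GFPminus lists had one over the GFPplus summit. Fold at these summits was 6.03 ± 0.321 in GFPplus and 5.96 ± 1.04 in GFPminus lists (SD, n = 3 each), a difference within the spread of the lists.

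The second widest lay on chromosome 20 at 46949954 to 46951460, with GFPplus summits at 1399, 1393 and 1304 bp and GFPminus summits at 108, 86 and 172 bp, a gap of 1132 bp. Here the GFPplus summits were at the higher coordinates, and fold was 6.88 ± 1.15 and 7.38 ± 0.934 (SD, n = 3 each). All 3 lists of each fraction had a peak over the summit of the opposite fraction. Separate peaks at both sites were called in 3 lists. Their folds at the GFPplus and GFPminus summit were 7.61 and 7.06 in GFPplus replicate 1 and 7.48 and 7.42 in GFPplus replicate 2. In GFPminus replicate 2 they were 6.22 and 7.10. On chromosome 6 at 14535667 to 14536883 the GFPplus summits were at 923, 958 and 904 bp and the GFPminus summits at 251, 192 and 237 bp (gap 653 bp), with folds of 5.55 ± 0.847 and 7.34 ± 0.563 (SD, n = 3 each). Every GFPminus fold there, 6.74 to 7.86, was above every GFPplus fold, 4.59 to 6.18. This region lay 8.66 kb from another one with separated summits, the closest neighbours of the set, in which the gap of 165 bp pointed the other way.

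The region on chromosome 12 at 18794145 to 18795249 had GFPplus summits at 996, 838 and 841 bp and GFPminus summits at 66, 78 and 213 bp (gap 625 bp). It was the only one of the 340 in which no GFPplus summit peak overlapped any GFPminus summit peak, and it was weak, with folds of 5.02 ± 1.42 and 4.75 ± 1.34 (SD, n = 3 each). Under 5 of the alternative settings it was no longer a shared region. With peaks merged anew without GFPplus replicate 1, the gap was 0 bp in the region then formed.

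On chromosome 7 at 70601159 to 70602321 the summits of each fraction were close together, at 971, 967 and 970 bp in GFPplus and at 109, 128 and 129 bp in GFPminus replicates 1 to 3 (gap 838 bp). GFPminus replicate 1 had 1 peak in the region and replicates 2 and 3 had 2 each. With peaks merged anew without replicate 1, the gap was 0 bp in the region then formed. That 0 bp came from the redrawn region and not from the summit of replicate 1, which does not set the gap. No GFPplus list had a peak over the GFPminus summit, while all 3 GFPminus lists had one over the GFPplus summit. One site was thus called in both fractions and the other in GFPminus alone. On chromosome 13 at 5218945 to 5219957 the GFPplus summits lay at 177, 169 and 142 bp and the GFPminus summits at 799, 800 and 836 bp (gap 622 bp). Here no GFPminus list had a peak over the GFPplus summit. Fold was 7.37 ± 1.89 and 6.01 ± 0.986 in the chromosome 7 region and 6.77 ± 1.93 and 5.26 ± 1.71 in the chromosome 13 region, GFPplus first (SD, n = 3 each), and the fractions overlapped in both.

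The regions with the smallest within-fraction range relative to the gap showed the cleanest separation, which is how they were picked. On chromosome 24 at 13944973 to 13945523 all 3 GFPplus summits lay at 255 bp, and the GFPminus summits at 364, 364 and 370 bp. On chromosome 7 at 7282522 to 7283245 the GFPplus summits were all at 502 bp and the GFPminus summits at 566, 570 and 569 bp. On chromosome 23 at 37118389 to 37118950 they were at 295, 297 and 296 bp and at 385, 382 and 386 bp. These 3 gaps of 109, 64 and 85 bp were small, but within each fraction the summits differed by at most 6 bp, 4 bp and 4 bp. A wider case was on chromosome 18 at 259776 to 260726, with GFPplus summits at 319, 342 and 347 bp and GFPminus summits at 730, 723 and 702 bp (gap 355 bp). Each list had a single peak in that region. All 3 GFPminus peaks reached over the GFPplus summit, but only 1 of the 3 GFPplus peaks reached over the GFPminus summit. Folds were close, 6.37 ± 0.637 and 5.96 ± 0.251 (SD, n = 3 each).

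The strongest regions, by the lowest −log10 p of their summit peaks, all had narrow gaps of 55 to 78 bp. On chromosome 9 at 13630955 to 13631528 the GFPplus summits lay at 413, 413 and 409 bp and the GFPminus summits at 344, 346 and 333 bp, so the lists of a fraction agreed within 13 bp beside a gap of 63 bp. On chromosome 2 at 39379659 to 39380301 they lay at 464, 456 and 463 bp and at 376, 400 and 360 bp. The midpoint of this region was 0.9 kb from that of a region called in every GFPplus list and no GFPminus list. For the chromosome 23 region described next this distance was 0.7 kb, to one called in every GFPminus list and no GFPplus list. Both had high folds whose difference between fractions was within the spread, 12.8 ± 2.23 and 11.7 ± 0.568 on chromosome 9 and 11.3 ± 0.707 and 11.4 ± 0.606 on chromosome 2 (SD, n = 3 each).

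In the remaining strong regions the summits were more scattered than the gap was wide. On chromosome 23 at 19441344 to 19442408 the GFPplus summits at 630, 655 and 643 bp were close, while those of GFPminus were at 826, 878 and 733 bp (gap 78 bp). On chromosome 22 at 744975 to 745789 they were at 328, 329 and 403 bp and at 142, 99 and 259 bp (gap 69 bp). On chromosome 24 at 37195227 to 37196142 all GFPplus summits were at 803 bp and those of GFPminus at 668, 663 and 741 bp (gap 62 bp). In these 3 regions GFPminus replicate 3 set the GFPminus edge of the gap. Without that library the gap was 186 bp on chromosome 22 and 135 bp on chromosome 24, and the signed gap, GFPplus minus GFPminus, was −171 bp on chromosome 23. On chromosome 10 at 39892482 to 39893329 the scatter was in GFPplus instead, at 294, 479 and 495 bp, with GFPminus at 557, 550 and 578 bp (gap 55 bp).

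Across the set, GFPminus replicate 3 had the GFPminus summit nearest to the other fraction in 170 of 340 regions, ties included, against 83 for replicate 1 and 98 for replicate 2. The GFPplus replicates shared this place more evenly, with 126, 121 and 115 regions. GFPminus replicate 3 thus most often set the GFPminus edge of the gap. Its summit was the GFPminus summit farthest from the other fraction in 98 regions, against 119 for replicate 1 and 135 for replicate 2. In these regions its median distance to the GFPplus lists was 141.5 to 142.5 bp, against 174 to 193 bp for GFPminus replicates 1 and 2. The part of this library in the counts was not tested beyond leaving it out.

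**Figure D5:**
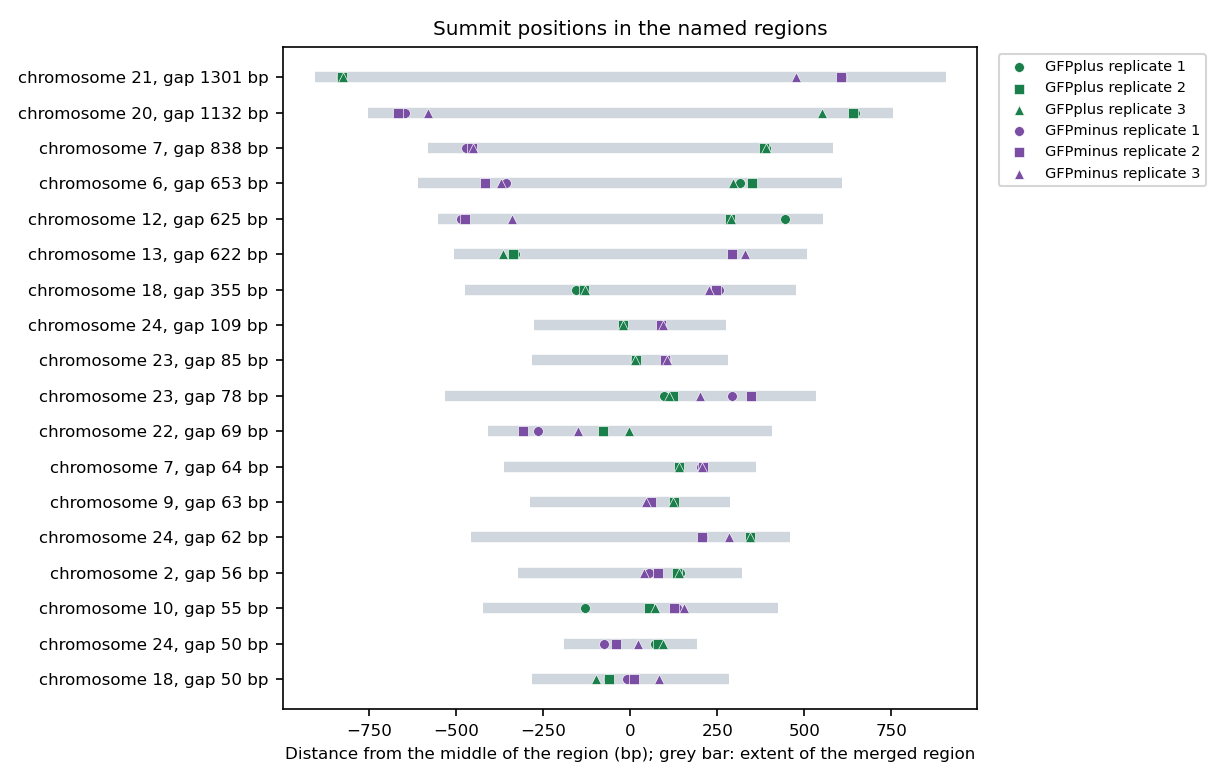
Summit positions of the 6 lists in the named regions, in bp from the middle of the region, with the extent of the merged region as a grey bar. Green and purple symbols sit in distant clusters in the 6 widest gaps (622 to 1301 bp), and in the narrow gaps at the bottom they lie side by side.

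At the threshold, members and non-members looked alike. There were 38 regions with a gap of 50 to 54 bp and 34 with a gap of 45 to 49 bp. Just inside, the region on chromosome 24 at 43825003 to 43825385 had GFPplus summits at 264, 272 and 287 bp and GFPminus summits at 115, 152 and 214 bp, and its gap was 112 bp without GFPminus replicate 3. The other, on chromosome 18 at 17523324 to 17523889, had 218, 223 and 184 bp and 273, 293 and 367 bp. Just outside, with gaps of 49 bp, a region on chromosome 5 at 6527297 to 6527855 had GFPplus summits at 246, 193 and 229 bp and GFPminus summits at 138, 143 and 144 bp. One on chromosome 12 at 4313756 to 4314280 had 405, 411 and 297 bp and 248, 119 and 173 bp.

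The regions were spread over the genome much as shared regions were. On the numbered chromosomes, which held 330 of the 340, the share of shared regions meeting the rule ran from 1.01% on chromosome 10 (7 of 696) to 2.40% on chromosome 4 (12 of 499). Chromosome 7 held the most, 26 of 1136 (2.29%). Only 34 lay within 100 kb of another region of the set, and the median distance to the nearest was 1438 kb. Within 1 Mb of the first or last peak of a chromosome lay 28 (8.24%), beside 7.16% of shared regions, and among gaps of at least 200 bp these were 9 of 57 (15.8%). Regions called in every library of a single fraction and in no other were seldom near. Within 10 kb of 1 of the 2285 such GFPplus regions lay 14 regions of the set (4.12%, against 4.38% of shared regions), and within 10 kb of 1 of the 1594 such GFPminus regions lay 11 (3.24%, against 2.63%).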

How the data were processed

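The authors deposited 1 narrowPeak list per library. In these deposited lists each peak has a summit offset, a fold enrichment (ratio), the −log10 of its p and q, and a score, per the file headers and layout. Per the submitters' processing notes, the tools were MACS2, deepTools, Bowtie2 2.1.0 and cutadapt 1.3, and the build was Zv9 (danRer7). For tool settings, the peak threshold and read filters, nothing is given in the sources used. These values are the authors' own, from libraries called separately. They served to choose, rank or filter peaks within a list, and folds of the fractions are set side by side only as a description with no test. The fold of a list was read at its own summit peak, so in separated regions the fractions were read at different positions. The score was not used.

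With Python 3.11.15, pandas 2.3.3 and numpy 2.4.6, peaks of all 6 lists overlapping by at least 1 bp were merged, and the summit of the highest-fold peak of each list was taken. The rule for members needs a peak in all 6 lists and a gap of at least 50 bp. Counts, left-out readings and summit distances were compared over the 10 divisions of the 6 lists into 3 and 3 by exact permutation tests, one-sided for counts and left-out readings and two-sided for distances. With 3 lists per fraction no p below 0.1 is possible. Regions are not replicates. Code was tested on simulated data.

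The members, lists and tests were chosen with earlier results of these data known. Regions on numbered chromosomes were named by rule. These were the 6 with the widest gap, the 6 strongest by the weakest −log10 p of their summit peaks, and the 6 with the smallest within-fraction range over gap. Further, they were the 2 just inside and the 2 just outside the threshold, and the 4 strongest whose summit peaks all overlap (all 4 also among the strongest). A last class, the 4 strongest with both sites as peaks in all 6 lists, was empty. Same-numbered libraries were checked for pairing. Their deviations correlated at −0.02, 0.03 and 0.07, under the 0.1 that would pair them, and the labels do not tie numbers to occasions, so they were not treated as pairs. The read depth of the libraries is unknown from peak lists, and list length limits which regions count as shared. Coordinates are 1-based, in Zv9. Summit positions are in bp from the first base of the region. Distances between regions are those between their midpoints. Genes, motifs and sequences were not analysed here.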

Additional observations from a re-analysis of the deposited data

How the results depend on the processing

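The count of 340 regions changed with the gap, to 675 at 25 bp, 120 at 100 bp, 57 at 200 bp and 36 at 300 bp. It was 185 of 13969 shared regions with lists of equal length (each shortened to its best peaks) and 158 of 12388 with a −log10 q of at least 5. With 1 peak per list it was 180 of 14823, and 95 of 8524 with a −log10 p of at least 10 in all 6 lists. Its ratio to the highest other division, 1.10, was 1.80 at 300 bp. It fell below 1 with a gap of 25 bp (0.901), a −log10 q of at least 5 (0.958) and a −log10 p of at least 10 (0.872). With lists of equal length it was 1.005. Leaving out each library gave counts from 752 of 20804 to 1134 of 27647 shared regions and ratios of 0.723 to 0.979. At 300 bp the ratios ran from 0.954 (without GFPminus replicate 1) and 0.982 (without GFPminus replicate 2) to 1.80. At 200 bp another grouping gave more regions whenever a GFPminus list was left out. The gaps of 200 and 300 bp, the −log10 p filter and the ratios without a library were chosen after seeing the data. The causes were not tested.

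The left-out reading stayed above 50% in every setting run, from 51.6% with 1 peak per list to 59.2% at 200 bp. At an exact one-sided permutation p of 0.2 instead of 0.1 it was exceeded by another division with 1 peak per list, a gap of 25 bp, a −log10 q of at least 5 and a −log10 p of at least 10. The distance between fractions minus that within them, 0.17 bp, was −0.17 with lists of equal length, −0.17 with a −log10 q of at least 5, −0.33 with 1 peak per list, 0 on numbered chromosomes, and −2.83 to 4.0 with a library left out. With numbers as a replicate block, where only same-numbered summits must be separated on the same side, the count was 725, against 529 to 579 with the labels of a pair exchanged (exact permutation p = 0.25, the smallest possible). No gap of a named region turned, though 7 times the region was no longer shared. Of the 191 values, 106 came from leaving out a library, which can only keep or widen such a gap unless the region is redrawn. The 18 values on numbered chromosomes alone could not change. The left-out reading kept the regions merged from all lists. For the counts, distances and gaps without a single library, peaks were merged anew. In the region then formed, the gap was 0 bp on chromosome 7 at 70601159 to 70602321 without GFPminus replicate 1. It was also 0 bp on chromosome 12 at 18794145 to 18795249 without GFPplus replicate 1. Of all 191 values, those limited ones included, 178 moved by no more than the spread between replicates. GFPminus replicate 3, the shortest list, limits the set of shared regions.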
